A study of Danio rerio with 9 samples.

Results

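Rab GTPases are small membrane-bound switches that decide which transport vesicles form, move and fuse at each organelle. Each Rab is lipidated at its C terminus, loaded with GTP by an exchange factor, read by effector proteins such as tethers and motors, and turned off by a GTPase-activating protein, after which a GDP dissociation inhibitor extracts it from the membrane. Rab1, Rab2 and Rab6 are textbook Rabs of the Golgi, the organelle where the human protein FAM177A1 resides, while Rab5, Rab7 and Rab11 mark early, late and recycling endosomes, and Rab3 and Rab27 act on secretory vesicles.

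The members were the rows of the deposited count table whose name is rab, a number and then only letters or digits, leaving out rab3gap, rab3il and rab11fip rows. This gave 69 of 28802 rows, and all 69 passed the filter on low counts that left 21694 rows for testing. The pattern also takes rab3ip, which encodes Rabin8, an exchange factor, and rab5if, a Rab5-interacting factor. These 2 are not GTPases and are given apart, so 67 Rab GTPase rows remain. By the compartment their number is known for, 18 were placed with the ER-to-Golgi step and the Golgi, 24 with endosomes and lysosomes, 12 with secretion and 13 elsewhere. No protein or promoter sequence was used here.

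The 9 libraries came from pools of 7 whole zebrafish larvae at 8 days post fertilization, with 3 libraries in each of 3 genotypes. Wild-type columns carry the name of the AB line, single mutants carried the fam177a1a allele stl700 in homozygous form, and double mutants had in addition a homozygous stl746 allele of fam177a1b. No transgene or treatment is named. The labels do not say whether libraries came from separate clutches, so p-values measure the spread between these pools, which may be partly technical. They also do not say whether wild-type and mutant larvae were siblings. Differences between lines or clutches therefore cannot be separated from those of genotype. In pools of whole larvae, fewer cells of a type and less RNA per cell cannot be told apart.

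Library totals ran from 16978591 to 24717581 counts, and Rab GTPase rows took 0.174% to 0.186% of them. The row named fam177a1 fell from 25.1 ± 2.45 CPM (counts scaled to a common library size with TMM factors, SD, n = 3) in wild type to 0.638 ± 0.186 CPM in single and 0.603 ± 0.252 CPM in double mutants. Single-mutant replicate 1 stood apart: the chi-square per degree of freedom of its counts against the other single mutants was 18 and 20.9, against 3.30 to 13.7 for all other pairs of 1 genotype. Markers of 7 tissues and cell types of a larva were all detected, and no marker in the table was at 0 in any library. Summed enterocyte markers ran from 6570 to 7130 CPM in wild type, from 4630 to 5070 in single and from 4770 to 5020 in double mutants. Summed liver markers ran from 6750 to 7830, 9250 to 9860 and 9560 to 10000 CPM in the same order. A few genes led these sums, in wild type apoa1a and apoa4b.2 with 2892 and 1619 CPM, and apobb.1 and tfa with 4041 and 1945 CPM. At an edgeR adjusted p under 0.05, 6 of 10 enterocyte markers fell and 1 rose in each mutant. Of 10 liver markers, 7 rose in single mutants, and 6 rose and 1 fell in double mutants. So 60% of enterocyte markers fell, beside 22.6% and 18% of all rows. Of liver markers 70% and 60% rose, beside 19.5% and 14.2%. The part of these shifts in the Rab results was not tested.

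In wild type the most abundant Rab per length was rab10, a Rab of exocytosis and basolateral transport, at 89.1 ± 3.78 RPKM (CPM per kilobase of the deposited gene length, SD, n = 3). It was followed by rab2a, which acts between the ER and Golgi, at 64.8 ± 2.61 RPKM and by rab11a of recycling endosomes at 54.7 ± 1.77 RPKM. The ER-to-Golgi Rab row rab1ab stood at 41.9 ± 0.490 RPKM and its relative rab1ba at 38.6 ± 2.83 RPKM. Over the wild-type libraries the range of each of the first 4 lay above that of the next in order, while rab1ba overlapped with the early endosomal rab5c at 37.7 ± 2.17 RPKM. Further down the order was mostly undecided, since 52 of 66 neighbouring pairs overlapped. The first 10 rows held 51.3% of the summed RPKM of all Rab GTPases. At the low end, 4 rows were under 1 RPKM, namely rab32b (0.923 ± 0.170), rab38b (0.872 ± 0.562), rab36 (0.573 ± 0.164) and rab44 (0.547 ± 0.0722).

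**Figure D1:**
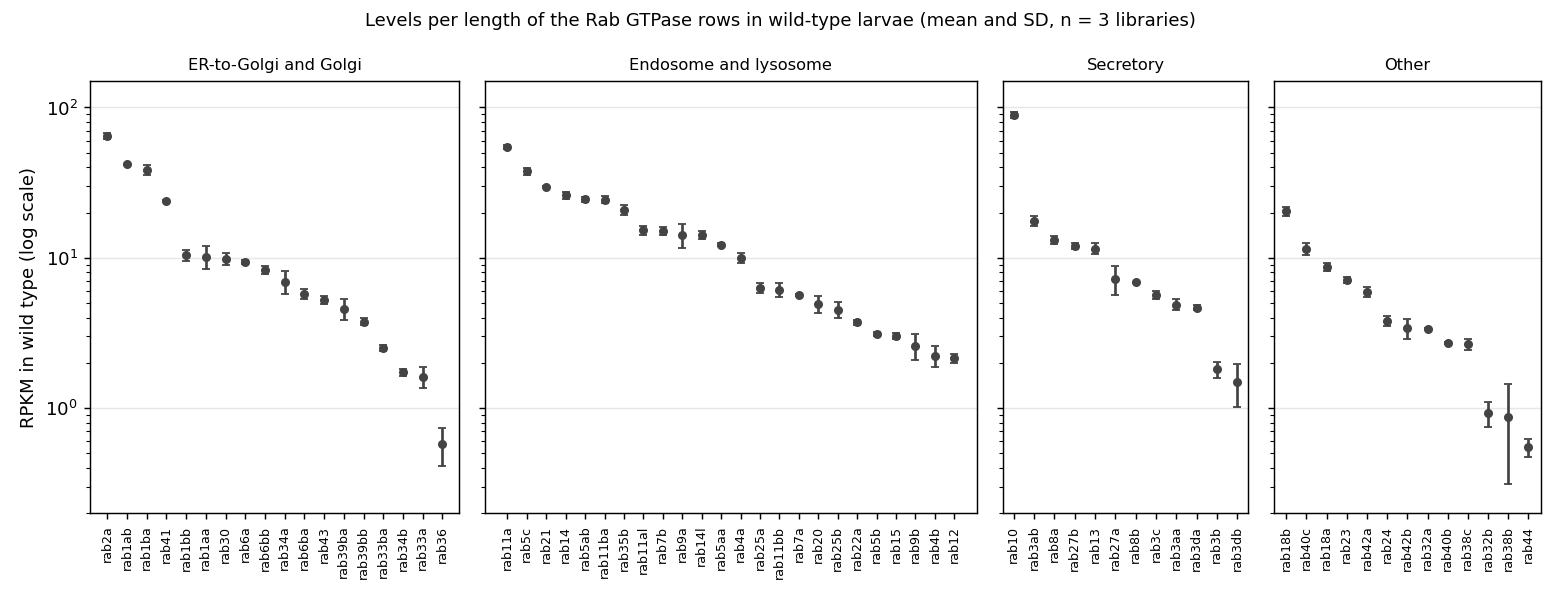
Level per length in wild type of each of the 67 Rab GTPase rows, in RPKM on a log axis, ordered within 4 groups by compartment. Points are means and bars SDs over 3 libraries; rab10, rab2a and rab11a lead the order at 89.1, 64.8 and 54.7 RPKM.

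Added up per library, endosomal Rabs held 40.8% ± 0.317 (SD, n = 3) of the summed Rab RPKM in wild type, Golgi Rabs 29.7% ± 0.372, secretory Rabs 20.9% ± 0.486 and the others 8.56% ± 0.178. In single mutants these shares were 41.8% ± 0.148, 28.3% ± 0.694, 20.5% ± 0.387 and 9.41% ± 0.339. In double mutants they were 40.2% ± 0.261, 29% ± 0.855, 21.3% ± 0.488 and 9.43% ± 0.488. The sum over all 67 rows was 840.7 ± 14.3 RPKM in wild type, 876 ± 41.8 in single and 823 ± 5.46 in double mutants. The order of the classes was the same in all 3 genotypes.

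The first question is which Rab rows differ from wild type when fam177a1a is mutated. Of the 67 Rab GTPases, 16 rose and 11 fell. The largest rise was that of rab1aa, an ER-to-Golgi Rab, closely followed by rab40b (log2 fold changes of 1.13 and 1.11). The largest fall was that of rab34a, a Rab of the Golgi, macropinosomes and primary cilia (−0.74). Together the called rows are 40.3% of the Rab GTPases, beside 42% called over all tested rows (19.5% higher and 22.6% lower), so the family as a whole was called about as often as the background. The called changes were small. Called Rabs had a median absolute log2 fold change of 0.43, and 2 of 27 reached 2-fold. Over all called rows the median was 0.60, and 21.7% of them reached 2-fold. Called or not, the median absolute log2 fold change was 0.32 over the Rab GTPases and 0.32 over all tested rows. The median log2 fold change was 0.02 over the Rab GTPases and −0.01 over all tested rows.

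In double mutants against wild type, which asks the same with both genes mutated, 10 Rab GTPases rose and 10 fell. That is 29.9% of them, beside 32.2% over all rows (14.2% higher and 18% lower). The median absolute log2 fold change of the called Rabs was 0.47, with 1 of 20 at 2-fold or more. Over all called rows the median was 0.56, and 20.1% of them reached 2-fold. Called or not, the median absolute log2 fold change was 0.2 over the Rab GTPases and 0.27 over all tested rows. The 2 comparisons share the wild-type libraries. In both, 10 Rabs were higher (rab1aa, rab3b, rab5aa, rab6bb, rab7a, rab14l, rab18b, rab20, rab24 and rab40b) and 8 were lower (rab1ab, rab1bb, rab5b, rab6a, rab11ba, rab12, rab34a and rab35b). These 18 are 26.9% of the Rab GTPases, beside 26.7% of all tested rows called in both mutants in 1 direction. They make up 66.7% of the Rab calls in single mutants and 90% of those in double mutants. Over all tested rows, the CPM ranges of the genotypes did not overlap in 49.0% for single mutants and in 50.1% for double mutants, which is the background for the statements on overlap in the next paragraphs.

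**Figure D2:**
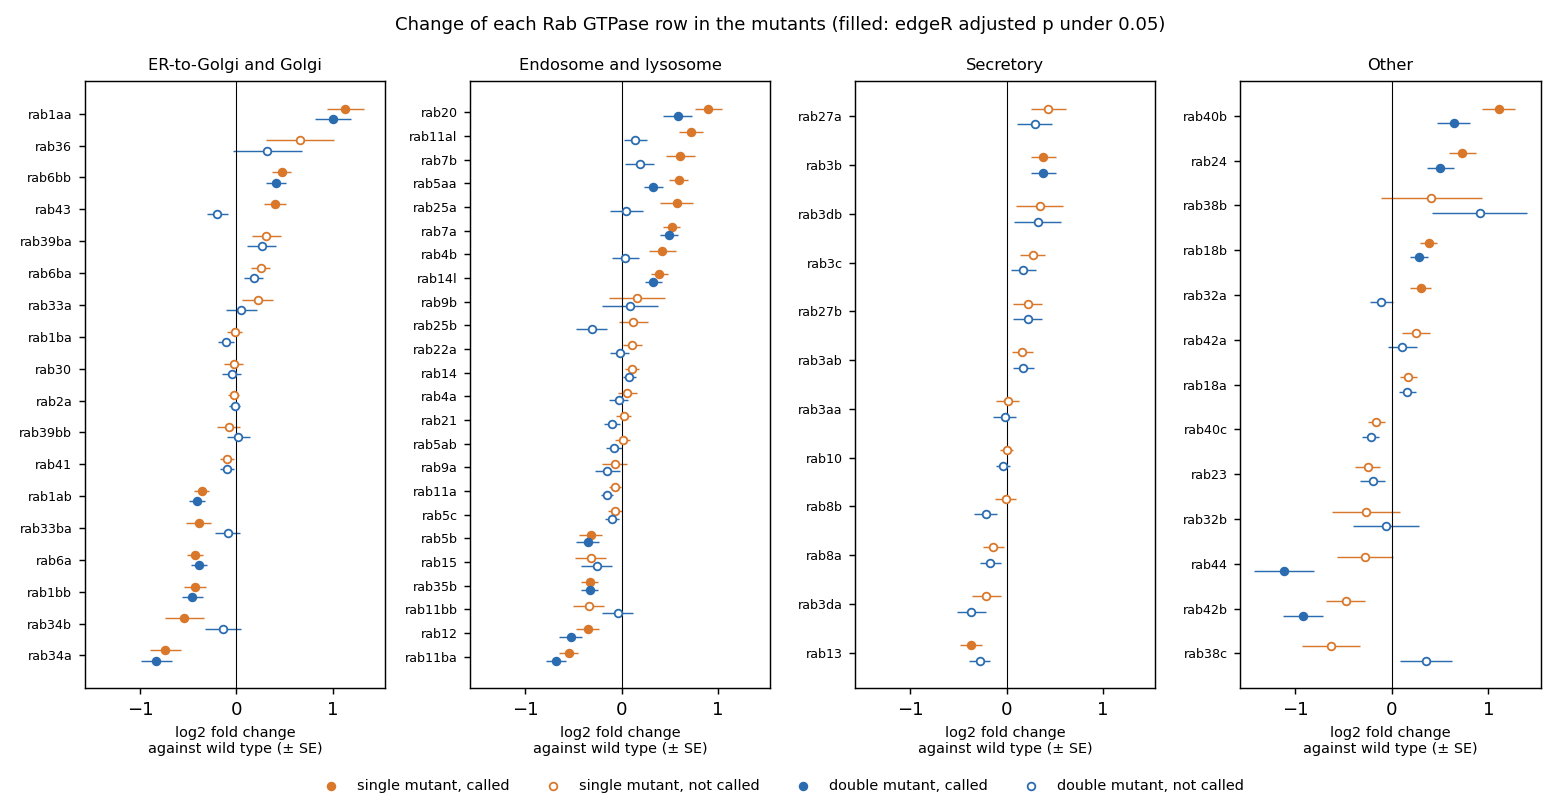
Log2 fold change against wild type of each Rab GTPase row in single (orange) and double mutants (blue), with its SE, in 4 groups by compartment. Filled points have an edgeR adjusted p under 0.05, and in each group such points lie on both sides of 0 in at least 1 mutant, with rab1aa and rab40b farthest to the right in single mutants (1.13 and 1.11).

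Among the Golgi Rabs, 3 of 18 rose and 6 fell in single mutants, and 2 rose and 4 fell in double mutants, with medians of −0.03 and −0.07. As shares of the class, 16.7% rose and 33.3% fell in single mutants, beside 19.5% and 22.6% of all rows, and in double mutants 11.1% rose and 22.2% fell, beside 14.2% and 18%. The row rab1aa had 10.3, 9.43 and 7.30 CPM in wild type, 19.7, 18.3 and 21.3 CPM in single mutants and 18.2, 12.9 and 22.8 CPM in double mutants. Every mutant library lay above every wild-type library, although double-mutant replicate 2 was well below the other mutant libraries. In single mutants this was a log2 rise of 1.13 (SE 0.19, edgeR adjusted p = 0.000482), and in double mutants one of 1 (SE 0.19, adjusted p = 0.00175). A second rab1 row went the other way: rab1ab had 76.7, 74.9 and 75.7 CPM in wild type, 57.7, 56.7 and 63.2 CPM in single and 56.0, 54.2 and 60.7 CPM in double mutants. Again no mutant library reached the wild-type range, and the log2 fold changes were −0.36 (SE 0.08, adjusted p = 0.00161) and −0.41 (SE 0.08, adjusted p = 0.000789). The smaller row rab1bb also fell, with log2 fold changes of −0.43 (adjusted p = 0.00445) and −0.46 (adjusted p = 0.00435), while rab1ba, at 114.5 ± 8.42 CPM in wild type, had log2 fold changes of −0.02 and −0.11 that were not called.

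The Rab6 rows, which stand for Rabs of transport within and out of the Golgi, were divided as well. For rab6a, 48.9, 47.7 and 46.6 CPM were found in wild type, 37.5, 32.3 and 36.7 CPM in single and 35, 37.3 and 36.7 CPM in double mutants. For rab6bb the values were 26.4, 23.6 and 24.4 CPM, then 29.2, 39.1 and 35.2 CPM, then 32.5, 33.4 and 33.3 CPM. Neither row overlapped between wild type and a mutant genotype, rab6a being lower and rab6bb higher in mutants. The log2 fold changes of rab6a were −0.43 (SE 0.08, edgeR adjusted p = 0.000733) and −0.39 (SE 0.08, adjusted p = 0.00193), and those of rab6bb 0.47 (SE 0.10, adjusted p = 0.00172) and 0.41 (SE 0.10, adjusted p = 0.00602). The other Rab6 row, rab6ba, had log2 fold changes of 0.25 (adjusted p = 0.0684) and 0.18 (adjusted p = 0.202).

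The fall of rab34a was the largest among Golgi Rabs. It had 10.8, 10.2 and 13.9 CPM in wild type, 6.35, 6.10 and 8.39 CPM in single and 6.65, 6.84 and 6.17 CPM in double mutants. All 6 mutant libraries lay below the wild type, with log2 fold changes of −0.74 (SE 0.16, edgeR adjusted p = 0.00138) and −0.83 (SE 0.16, adjusted p = 0.000908). The abundant Golgi Rab rab2a, by contrast, was at 167.6 ± 6.75, 164 ± 4.67 and 165 ± 1.27 CPM (SD, n = 3 each), with log2 fold changes of −0.03 (SE 0.06) and −0.02 (SE 0.06). The same held for rab30, known from the Golgi, with −0.03 (SE 0.10) and −0.05 (SE 0.10), and for rab41, with −0.10 (SE 0.07) in both mutants; none of the 3 was called.

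Of 24 endosomal and lysosomal Rabs, 8 rose and 4 fell in single mutants, and 4 rose and 4 fell in double mutants, with medians of 0.09 and −0.04. In single mutants 33.3% of the class rose and 16.7% fell, beside 19.5% and 22.6% of all rows, and in double mutants 16.7% rose and 16.7% fell, beside 14.2% and 18%. The late endosomal and lysosomal rab7a had 29.3, 28.7 and 28.4 CPM in wild type, 38.3, 45.7 and 40.2 CPM in single and 39.1, 40.6 and 41.3 CPM in double mutants. Its mutant libraries were all higher, with log2 fold changes of 0.52 (SE 0.09, edgeR adjusted p = 0.000186) and 0.49 (SE 0.09, adjusted p = 0.000508). The row rab20, a Rab of phagosomes and early endosomes in mammalian cells, had 7.82, 6.08 and 7.02 CPM in wild type, 11.9, 11.7 and 15.6 CPM in single and 10.3, 9.96 and 11.2 CPM in double mutants. Here too the ranges were apart, and the log2 fold changes were 0.90 (SE 0.14, adjusted p = 0.000159) and 0.58 (SE 0.15, adjusted p = 0.00617).

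Among early endosomal Rab5 rows, rab5aa rose from 32.6 ± 0.658 CPM to 49.1 ± 6.80 CPM in single and 41 ± 3.85 CPM in double mutants (SD, n = 3 each). The log2 fold changes were 0.59 (SE 0.10, edgeR adjusted p = 0.000304) and 0.33 (SE 0.10, adjusted p = 0.0221). In double mutants the call ended when wild-type replicate 2 (adjusted p = 0.0715), wild-type replicate 3 (0.0548) or double-mutant replicate 1 (0.0908) was left out. The rows rab5c and rab5ab, more abundant per length, were not called, with log2 fold changes between −0.10 and 0.01. The row rab5b was called lower at −0.32 (adjusted p = 0.0436) and −0.35 (adjusted p = 0.0386). It was the least stable of the Rab calls: in single mutants it was lost when any library other than single-mutant replicate 1 was left out (adjusted p up to 0.175). In double mutants it was lost without any wild-type library, without single-mutant replicate 2 or 3, and without double-mutant replicate 1 or 3 (adjusted p up to 0.225). Both calls were also lost with DESeq2 (0.0857 and 0.0739), upper-quartile factors (0.0514 and 0.0575) and no filter on low counts (0.0830 and 0.0601). The call in single mutants was lost as well with RLE factors (0.0555), a stricter filter (0.0663), only the 6 libraries compared (0.0523) and the replicate block (0.0515).

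Rab11 acts on recycling endosomes. The row rab11ba had 49.0, 48.0 and 44.3 CPM in wild type, 29.7, 33.1 and 33.5 CPM in single and 27.1, 33.5 and 27.6 CPM in double mutants. No mutant library came near the wild type, and the log2 fold changes were −0.55 (SE 0.10, edgeR adjusted p = 0.000313) and −0.68 (SE 0.10, adjusted p = 9.02e-05), the latter being the smallest adjusted p of any Rab GTPase. The row rab11al had 27.1, 24.1 and 24 CPM in wild type, 34.7, 44.8 and 44.5 CPM in single mutants and 31.5, 22.9 and 28.4 CPM in double mutants. It was thus higher in every single-mutant library, while double mutants overlapped with wild type. Its log2 fold change was 0.72 (SE 0.12, adjusted p = 0.000317) in single and 0.14 (adjusted p = 0.434) in double mutants. The most abundant row of the family, rab11a, had log2 fold changes of −0.07 and −0.15 (adjusted p = 0.404 and 0.0837).

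Other endosomal calls were of similar size. The row rab7b, whose human counterpart acts between late endosomes and the Golgi, was at 19.1 ± 1.20 CPM in wild type and rose to 29.2 ± 7.17 CPM in single mutants (SD, n = 3), a log2 change of 0.61 (SE 0.15, edgeR adjusted p = 0.00562). Its single-mutant libraries were unequal, at 22.2, 29 and 36.6 CPM. In double mutants it was at 21.8 ± 2.42 CPM (log2 fold change 0.19, adjusted p = 0.381). The row rab14l rose by 0.39 and 0.33, and rab12, a Rab of transport from recycling endosomes to lysosomes, fell by 0.35 and 0.53 on the log2 scale in single and double mutants. The call of rab14l in double mutants was lost without wild-type replicate 3 or double-mutant replicate 3 (adjusted p up to 0.0597). That of rab12 in single mutants was lost without wild-type replicate 1 or 3, single-mutant replicate 2 or 3 or any double mutant (adjusted p up to 0.184), and also with DESeq2 (0.0590), no filter on low counts (0.0580) or only the 6 libraries compared (0.0657).

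**Figure D3:**
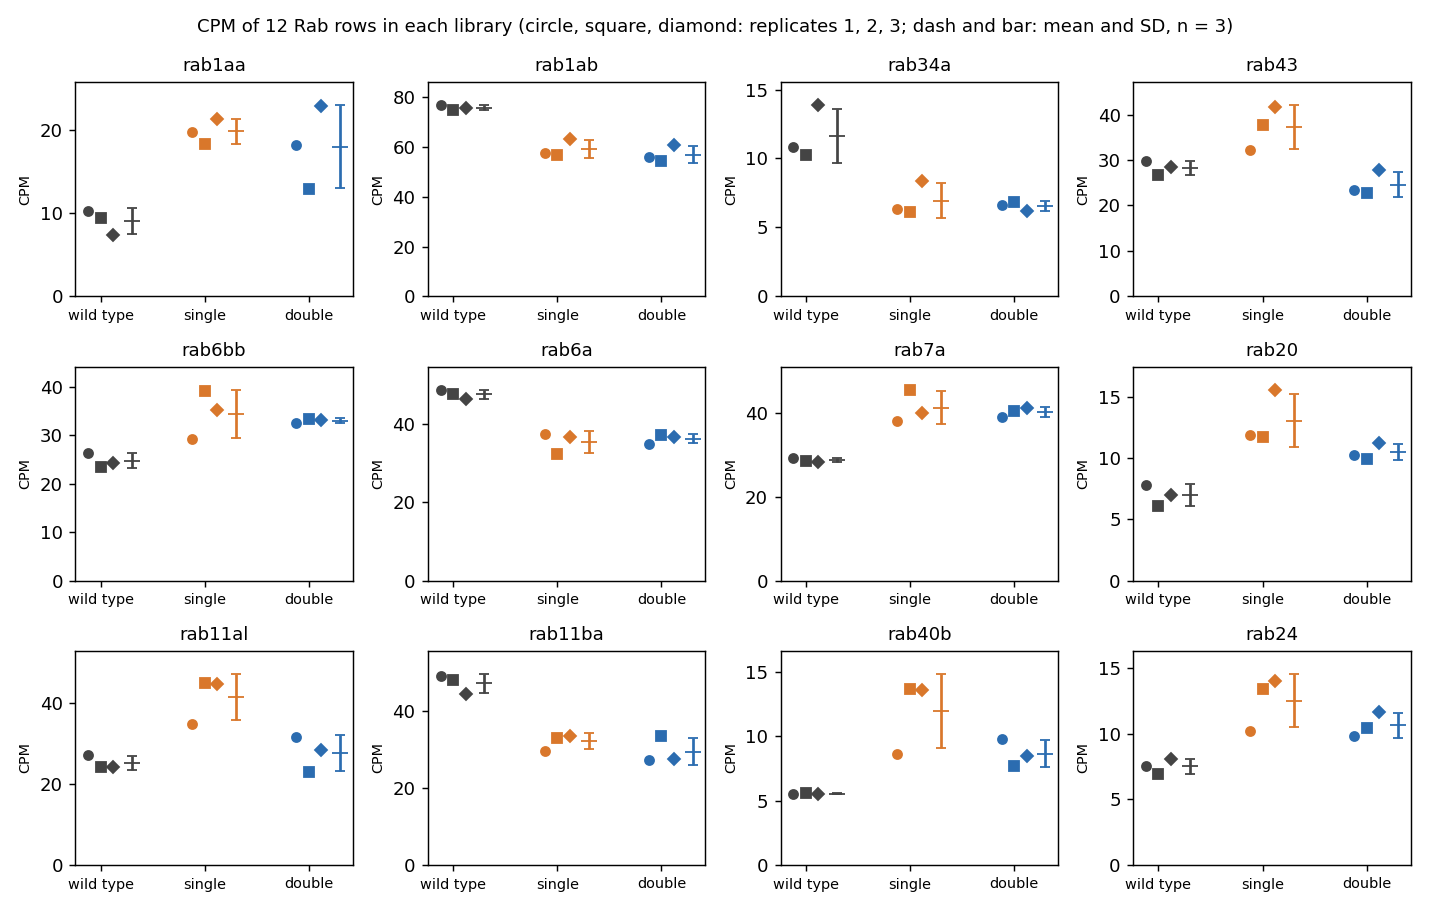
CPM of 12 Rab rows in each of the 9 libraries, with the mean and SD over 3 libraries of a genotype beside them, on axes that start at 0. Mutant libraries of rab1aa, rab6bb, rab7a and rab20 all lie above wild type and those of rab1ab, rab6a, rab34a and rab11ba below it, while rab43 and rab11al are highest in single mutants.

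Secretory Rabs had few calls. Of 12, 1 rose and 1 fell in single mutants and 1 rose in double mutants, which is 16.7% and 8.33% of the class beside the 42% and 32.2% of all rows. With 12 rows this is given as a description and was not tested. The row rab10 led the Rabs per length in wild type. It was at 115 ± 4.89, 115 ± 3.86 and 112 ± 2.34 CPM (SD, n = 3 each) in wild type, single and double mutants. Its log2 fold changes were 0.00 and −0.04 (SE 0.07 for each). The rows for Rab8, which acts in exocytosis and cilium formation, had log2 fold changes from −0.22 to −0.01 and were not called.

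The 6 Rab3 rows belong to Rabs of synaptic vesicles and other regulated secretion. Of these, rab3b had 8.59, 9.01 and 10.8 CPM in wild type, 12.8, 13.3 and 11 CPM in single and 12.6, 11.4 and 13 CPM in double mutants. The lowest mutant library lay just above the highest wild-type library. The log2 fold change was 0.38 (SE 0.13) in both comparisons (edgeR adjusted p = 0.0259 and 0.0326). These calls rested on several libraries, being lost without wild-type replicate 1 or 2 or single-mutant replicate 2 in the first comparison, and without wild-type replicate 1 or 2 or double-mutant replicate 1 or 3 in the second (adjusted p up to 0.0796 and 0.100). They were also lost when library totals were used without scaling factors (adjusted p = 0.0603 and 0.0630). Of 18 neuronal markers, 6 rose in single and 2 in double mutants and none fell. That is 33.3% and 11.1% called higher, beside 19.5% and 14.2% of all rows. The sum of the markers ran from 1430 to 1490 CPM in wild type, 1490 to 1720 in single and 1540 to 1620 in double mutants. Its part in the value of rab3b was not tested. The other Rab3 rows had log2 fold changes from −0.37 to 0.34, and rab27a and rab27b, Rabs of secretory granules and lysosome-related organelles, from 0.22 to 0.43; none was called. The tight-junction Rab rab13 fell by 0.37 on the log2 scale in single mutants (adjusted p = 0.0141), a call lost without wild-type replicate 1 or single-mutant replicate 2 or 3 (adjusted p up to 0.113).

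Of 13 Rabs of other compartments, 4 rose and none fell in single mutants, and 3 rose and 2 fell in double mutants, or 30.8% and 38.5% called beside 42% and 32.2% of all rows. The row rab40b, which belongs to Rabs with a SOCS box that recruit ubiquitin ligases, had 5.52, 5.60 and 5.51 CPM in wild type, 8.64, 13.7 and 13.6 CPM in single and 9.79, 7.68 and 8.47 CPM in double mutants. Every mutant library was above wild type, and single-mutant replicate 1 lay among the double mutants. The log2 fold changes were 1.11 (SE 0.17, edgeR adjusted p = 0.000114) and 0.64 (SE 0.17, adjusted p = 0.0102). The autophagy-related rab24 had 7.54, 6.93 and 8.08 CPM in wild type, 10.2, 13.4 and 14 CPM in single and 9.79, 10.5 and 11.7 CPM in double mutants. It rose by 0.73 (SE 0.14, adjusted p = 0.000682) and 0.50 (SE 0.14, adjusted p = 0.0132), the second call being absent without wild-type replicate 2 (0.0537) or double-mutant replicate 3 (0.0555). The rab18b row, for a Rab of the ER and lipid droplets, rose by 0.38 (adjusted p = 0.00327) and 0.28 (adjusted p = 0.0238), the latter lost without wild-type replicate 2 or 3 or double-mutant replicate 2 or 3 (adjusted p up to 0.0949).

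The rows rab44 and rab42b, both with low counts, fell in double mutants, and neither was called between the mutants (edgeR adjusted p = 0.193 and 0.298). The row rab44 stands for a large Rab with EF-hand motifs, in mice found in immune cells, and had 4.11, 3.20 and 3.99 CPM in wild type, 1.55, 4.15 and 3.66 CPM in single and 1.37, 1.56 and 2.25 CPM in double mutants. Double mutants were all below wild type, while of the single mutants replicate 1 was low and the others were not. The log2 change in double mutants was −1.12 (SE 0.31, edgeR adjusted p = 0.0127). This call was lost without wild-type replicate 1 (0.0539), double-mutant replicate 1 (0.0661) or double-mutant replicate 2 (0.0607). Of 12 leukocyte markers, 5 fell and none rose in double mutants, or 41.7% called lower beside 18% of all rows. Their sum ran from 224 to 235 CPM in wild type and from 175 to 194 CPM in double mutants. In single mutants 4 markers fell and 2 rose, or 33.3% and 16.7% beside 22.6% and 19.5% of all rows. There the sum ran from 181 to 389 CPM, a range set largely by mmp9. This marker had 19.97, 99.39 and 231.6 CPM in single mutants and 10.6, 12.47 and 11.89 CPM in wild type. The wide sum therefore does not show that the other leukocyte markers were kept. Of the 12 markers, 9 had a negative log2 fold change in single mutants and 3 a positive one, with a median of −0.22. In single mutants rab44 was not called (log2 fold change −0.28, edgeR adjusted p = 0.468). The part of these markers in the value of rab44 was not tested. The row rab42b fell to 3.08 ± 0.472 CPM in double mutants from 5.85 ± 0.890 CPM (SD, n = 3 each), a log2 change of −0.92 (SE 0.21, adjusted p = 0.00330), and was at 4.18 ± 1.06 CPM in single mutants (adjusted p = 0.0674). The rows of Rab32 and Rab38, which act on melanosomes, had means of at most 8.43 CPM in wild type, and of these rab32a was called in single mutants at 0.30 (adjusted p = 0.0445), a call lost without any wild-type library or without single-mutant replicate 1 or 2 (adjusted p up to 0.0877). It was also lost with library totals (0.100), DESeq2 (0.0706), only the 6 libraries compared (0.0648) and the replicate block (0.0567).

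The remaining calls were each lost under some alternative. In single mutants rab34b (−0.54, edgeR adjusted p = 0.0393) and rab33ba (−0.39, adjusted p = 0.0234) were lower, and rab25a (0.57, adjusted p = 0.0127) and rab4b (0.42, adjusted p = 0.0235) higher, all as log2 fold changes. The first was lost without any library other than single-mutant replicate 1 (adjusted p up to 0.135), and rab33ba without wild-type replicate 1 or 2, single-mutant replicate 2 or 3 or any double mutant (up to 0.177). With only the 6 libraries compared both were lost (0.0574 and 0.0656), and rab34b also with DESeq2 (0.0967), no filter (0.0751) and a stricter filter (0.0512). The call of rab25a was lost without wild-type replicate 2 (0.0533), and that of rab4b without wild-type replicate 1 or 3 or single-mutant replicate 2 or 3 (up to 0.101). The row rab35b fell by 0.33 in both mutants (adjusted p = 0.00950 and 0.0134). It was lost without wild-type replicate 1 or single-mutant replicate 2 in the first, and without wild-type replicate 1 or 2 or any double mutant in the second (adjusted p up to 0.0741 and 0.0808).

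Rows with the same number in the name were taken as a family, whether or not they are zebrafish duplicates of each other. By this grouping, 51 of the 67 rows belong to 20 families with 2 rows or more. Families with 1 row called higher and another called lower were rab1, rab5, rab6 and rab11 in single mutants and rab1, rab5 and rab6 in double mutants. No such count was made for families of other genes, so this is a description only. The rab5 entry rests on rab5b, whose call was lost in 15 of 18 alternatives in single and 10 of 18 in double mutants. In the rab1 family, rab1aa held 10% ± 1.34 (SD, n = 3) of the summed RPKM in wild type, 22.2% ± 0.987 in single and 21.1% ± 4.16 in double mutants, and rab1ab 41.5% ± 1.63, 32.5% ± 0.543 and 33.2% ± 1.1. The family sum was 101 ± 4.05, 100.7 ± 6.70 and 95.0 ± 7.92 RPKM. For rab6a the share was 40.1% ± 0.646, 27.7% ± 4 and 28.9% ± 0.296, with a family sum of 23.4 ± 0.944, 25.3 ± 1.88 and 24.7 ± 0.859 RPKM. In both families the split between rows differed between wild type and mutants, while the sums overlapped between genotypes within 1 SD. Some other family sums differed more. That of rab7 went from 20.9 ± 0.886 to 31.4 ± 5.91 RPKM in single and 25.2 ± 1.81 RPKM in double mutants. In the same order, rab18 had 29.11 ± 1.379, 36.35 ± 1.526 and 34.56 ± 1.337 RPKM. For rab14 the sums were 40.21 ± 1.777, 46.69 ± 1.77 and 45.35 ± 0.7989 RPKM. Those of rab34 were 8.663 ± 1.097, 5.328 ± 0.7484 and 5.478 ± 0.2286 RPKM. The rab11 sum was lower in double mutants, at 100.4 ± 3.431, 98.64 ± 3.834 and 87.18 ± 2.234 RPKM. How reads that fit more than 1 copy were counted is not given, so the split between near-identical copies is uncertain.

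**Figure D4:**
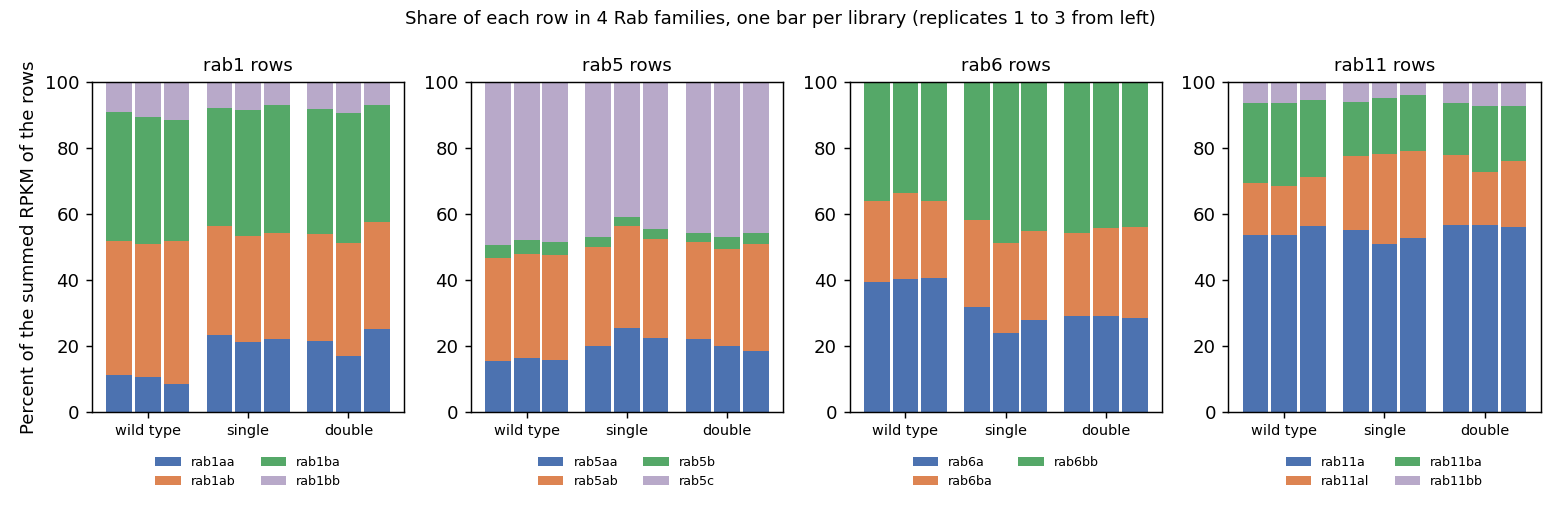
Share of each row in the summed RPKM of the rab1, rab5, rab6 and rab11 families, in percent, with 1 bar per library. The share of rab1aa is between 8.54% and 11.1% in wild type and between 16.8% and 25% in the mutant libraries, and that of rab6a falls from at least 39.4% to at most 31.8%.

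Directly compared, double and single mutants differed in 2 of the 67 Rab GTPases, both lower in double mutants, or 2.99% beside 1.67% of all rows (0.668% higher and 1% lower). Ranges did not overlap between the mutants in 20.2% of all rows. The Golgi Rab rab43 had 29.7, 26.6 and 28.5 CPM in wild type, 32.2, 37.8 and 41.7 CPM in single mutants and 23.3, 22.7 and 27.7 CPM in double mutants. Single mutants were above all other libraries and double mutants overlapped with wild type. It was higher in single mutants than in wild type (log2 fold change 0.40, SE 0.11, edgeR adjusted p = 0.00781) and lower in double than in single mutants (−0.60, adjusted p = 0.0109), and double mutants against wild type gave −0.20 (adjusted p = 0.171). For rab11al the difference between the mutants was −0.58 (adjusted p = 0.0265). The call of rab43 was lost without double-mutant replicate 2 (adjusted p = 0.0793), and that of rab11al without wild-type replicate 3 (0.0502), single-mutant replicate 2 (0.107), single-mutant replicate 3 (0.113), double-mutant replicate 2 (0.135) or double-mutant replicate 3 (0.0961). The call of rab11al was also lost with only the 6 libraries compared (0.0941) and with the replicate block (0.0502).

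This comparison depended on the library that stood apart. Without single-mutant replicate 1, 12 Rab rows differed between the mutants, 11 of them lower in double mutants, beside 17.6% of all rows. Of all rows called in that setting, 46.5% were higher in double mutants. Reducing the single mutants to replicate 1, an alternative chosen after seeing the data, left 1 library in that group. Its counts are therefore not given. Among the 12 were rab40b (−0.66, edgeR adjusted p = 0.00161), rab7b (−0.59, adjusted p = 0.000768), rab5aa (−0.35, adjusted p = 0.00863) and rab44 (−1.17, adjusted p = 0.00220), while rab33ba was the one that was higher in double mutants (0.49, adjusted p = 0.00291). With all libraries these 5 had adjusted p from 0.160 to 0.237. In single mutants against wild type, 29 Rab rows were called with all libraries and 33 without replicate 1. The shares of all rows called were 42% and 47.1%.

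The 2 rows that are not GTPases both fell. The exchange factor rab3ip, which loads Rab8, went from 35.5 ± 3.69 to 24.9 ± 0.354 CPM in single and 26.2 ± 1.86 CPM in double mutants (SD, n = 3 each), with log2 fold changes of −0.51 (SE 0.10, edgeR adjusted p = 0.000565) and −0.44 (SE 0.10, adjusted p = 0.00259). The row rab5if had 51.6, 52.3 and 51.4 CPM in wild type, 36.5, 27.8 and 34.7 CPM in single and 37.7, 35.6 and 39.3 CPM in double mutants. Its log2 fold changes were −0.65 (SE 0.10, adjusted p = 8.81e-05) and −0.46 (SE 0.10, adjusted p = 0.00184). No mutant library of either row reached the wild-type range.

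A list of genes that act on Rabs was described in the same way, with 171 tested of 173 in the table. In single mutants 36 rose and 32 fell (39.8%), in double mutants 20 rose and 15 fell (20.5%), beside 42% and 32.2% of all rows, with medians of 0.01 and −0.01. Of the 9 tested genes for lipidation and recycling of Rabs, 6 fell and 1 rose in single mutants and 3 fell and 1 rose in double mutants, or 77.8% and 44.4% called. The one that rose was rabac1, the prenylated Rab acceptor of Golgi membranes, from 26.9 ± 1.33 to 49.8 ± 8.66 and 37.9 ± 4.98 CPM (SD, n = 3 each). Its log2 fold changes were 0.89 (SE 0.13, edgeR adjusted p = 8.59e-05) and 0.49 (SE 0.13, adjusted p = 0.00810). The Rab-binding protein rabif fell by 0.65 and 0.66 on the log2 scale (adjusted p = 0.00481 and 0.00570). Both genes were named after their values were seen.

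Among exchange factors, 9 of 53 rose and 10 fell in single mutants and 5 rose and 5 fell in double mutants, or 35.8% and 18.9% called beside 42% and 32.2% of all rows. The Rab5 exchange factor rin2 had 19.8, 15.5 and 16.3 CPM in wild type, 36.4, 39.6 and 39.1 CPM in single and 33.5, 32.8 and 32.3 CPM in double mutants. All 6 mutant libraries lay far above wild type, with log2 fold changes of 1.15 (SE 0.10, edgeR adjusted p = 6.92e-07) and 0.93 (SE 0.10, adjusted p = 6.47e-06). Of 68 tested effectors, 12 rose and 8 fell in single mutants and 6 rose and 3 fell in double mutants, or 29.4% and 13.2% called beside the same shares of all rows. The Rab5 effector ankfy1 fell from 64.8 ± 1.55 to 36.9 ± 6.78 and 41.2 ± 2.67 CPM, or by 0.81 (SE 0.11, adjusted p = 3.36e-05) and 0.65 (SE 0.11, adjusted p = 0.000302) on the log2 scale. The Rab7 effector rilp rose by 0.72 in double mutants (adjusted p = 0.000294) and had a log2 fold change of 0.30 in single mutants (adjusted p = 0.0551).

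Of 41 GTPase-activating proteins, 14 rose and 8 fell in single mutants and 8 rose and 4 fell in double mutants, or 53.7% and 29.3% called beside 42% and 32.2% of all rows. A fall was found for tbck, with log2 fold changes of −0.67 (SE 0.10, edgeR adjusted p = 5.98e-05) and −0.39 (SE 0.09, adjusted p = 0.00465), and a rise for tbc1d32, a ciliary member, with 0.75 and 0.79 (adjusted p = 0.000242 and 0.000238). Of the 171 listed genes, 3 differed between the mutants, or 1.75% beside 1.67% of all rows. The count was 31 without single-mutant replicate 1 and 1 without double-mutant replicate 2, beside 17.6% and 0.492% of all rows. The Rab7-directed tbc1d2 had 3.10, 4.10 and 3.67 CPM in wild type, 7.67, 13 and 13.3 CPM in single and 5.64, 4.56 and 5.12 CPM in double mutants, and so was highest in single mutants. The difference between the mutants was −1.15 (SE 0.20, adjusted p = 0.00784). The Rab11-binding evi5b had 15.4, 22.1 and 21.3 CPM, then 20.5, 18.4 and 18.7 CPM, then 39.5, 36.4 and 37.5 CPM, and only the double mutants stood above the rest, with a difference of 0.98 (SE 0.12, adjusted p = 0.000393). The Rab11 effector rab11fip4b was lower in double mutants, at 3.82 ± 0.605 CPM, than in single mutants, at 7.48 ± 0.844 CPM (−0.97, SE 0.18, adjusted p = 0.0114). Leaving out double-mutant replicate 2 ended the calls of tbc1d2 (0.0667) and rab11fip4b (0.0793) between the mutants.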

How the data were processed

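RNA was measured in 9 ribosome-depleted libraries of pooled larvae. The deposited values are raw counts, as whole numbers per gene name with a gene length in bases, and the authors applied no scaling to them. The genome build GRCz11 and the tools STAR, cutadapt, featureCounts and DESeq2 are named in the submitters' processing notes. No source used here gives the annotation release, the strand setting or how multi-mapping reads were counted. Columns were matched to samples by title, and 0 were left unused. From the counts, rows were filtered with filterByExpr by genotype in edgeR 4.0.16 (R 4.3.3), scaled with TMM factors and tested with the quasi-likelihood F test with robust spread, genotype being the only factor, all 9 libraries in 1 fit with 6 residual degrees of freedom, two-sided, with Benjamini-Hochberg adjustment over all 21694 tested rows and a threshold of 0.05. CPM used TMM-scaled totals, and RPKM divided CPM by the deposited length. At these depths 3 counts in a library correspond to 0.121 to 0.178 CPM. A check of the fit on simulated data missed its first limit, on the share of truly changed genes that were called. After this was seen, that limit was replaced by checks on sign, median estimate and false share. The fit itself was not changed. All 69 names matched a RefSeq symbol of another assembly, so no coordinates are given. Named rows were, per comparison, called Rabs with a mean of at least 1 CPM and no overlap between genotypes (up to 10 per direction by fold), the 3 with the smallest adjusted p and the 3 most abundant in each class, Rabs called between mutants, and up to 4 listed regulators with the smallest adjusted p. Outside this rule, rab4b, rab5ab, rab6ba, rab27b, rab30, rab32a, rab32b, rab36, rab38b and rab41 were named after their values were seen. Members and lists were chosen with earlier results of these data known. Alternatives were other scalings (RLE, upper quartile, none), DESeq2 1.42.0, limma-voom 3.58.1, other filters, the 6 libraries compared, a replicate block and leaving out each library.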

Additional observations from a re-analysis of the deposited data

Results flagged for a closer look

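The change against wild type differed between the 2 mutants, by the direct test of double against single mutants, for 2 Rab rows. For rab11al the log2 difference was −0.58 (edgeR adjusted p = 0.0265), with 41.4 ± 5.73 CPM in single and 27.6 ± 4.38 CPM in double mutants (SD, n = 3 each), the single mutants being higher in 3 of 3 libraries. For rab43 it was −0.60 (adjusted p = 0.0109), with 37.3 ± 4.78 and 24.6 ± 2.73 CPM, again higher in 3 of 3 single-mutant libraries. Without double-mutant replicate 2 both calls were lost (adjusted p = 0.135 and 0.0793), and that of rab11al also without wild-type replicate 3 (0.0502), single-mutant replicate 2 (0.107), single-mutant replicate 3 (0.113) or double-mutant replicate 3 (0.0961), with only the 6 libraries compared (0.0941) and with the replicate block (0.0502).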

How the results depend on the processing

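Over 18 alternatives fixed with the design, no called Rab row changed its direction. Of the 27 Rab GTPases called in single mutants 17 kept their call in all 18, and of the 20 in double mutants 12 did. Both held for 10 rows, rab1aa, rab1ab, rab1bb, rab6a, rab6bb, rab7a, rab11ba, rab20, rab34a and rab40b. How many of all called rows kept their call was not counted, so these numbers do not set Rabs apart. Leaving out each library in turn gave 21 to 33 called Rab rows in single mutants, 16 to 25 in double mutants and 0 to 12 between the mutants, the 0 arising without double-mutant replicate 2, where 9 had an unadjusted p under 0.05 in edgeR. The share of all rows called ran from 33.4% to 47.1%, 23.8% to 39.6% and 0.492% to 17.6% under the same settings. For the unadjusted threshold no share of all rows was counted, so the 9 cannot be read as remaining differences. With all libraries, DESeq2 and limma-voom each called 2 between the mutants, beside 3.81% and 1.49% of all rows. Leaving out a library also gave 45 to 78, 26 to 55 and 1 to 31 called regulators. It moved the median of the Golgi Rabs between −0.07 and 0.04 in single and between −0.11 and −0.01 in double mutants, and that of the endosomal Rabs between 0.03 and 0.12 in single mutants. With library totals and no scaling factors, the medians of Golgi and endosomal Rabs in single mutants were −0.08 and 0.03. With only the 6 libraries compared, 1 Rab row was called between the mutants, beside 0.868% of all rows. In double mutants that setting called 55 regulators, beside 40.7% of all rows. Regulators called between the mutants numbered 8 with DESeq2 and 6 with no filter, beside 3.81% and 1.85% of all rows. Reducing single mutants to replicate 1, chosen after seeing the data, left 1 library in that group, so no counts are given for it. The cause of these shifts was not tested. Same-numbered libraries did not visibly deviate together over all tested rows (correlations from −0.04 to 0.06, beside −0.06 to 0.07 for different numbers). This cannot decide whether the numbers mark a common clutch or preparation, which the labels do not say. The replicate block gave 27, 22 and 1 called Rab rows in the 3 comparisons, beside 41.7%, 32.3% and 1.72% of all rows. It lost rab5b and rab32a in single mutants and rab11al between the mutants. Rows near the floor, such as rab38b with as few as 6 counts in a library, allow only large changes to be seen.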

Other observations

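A row named RAB19, written in capitals and so outside the naming rule, is a further Rab of the Golgi. It had 2.34, 0.906 and 1.56 CPM in wild type, 1.32, 1.13 and 2.51 CPM in single mutants and 1.25, 2.06 and 2.14 CPM in double mutants. The 3 genotypes overlap, and it was not called (edgeR adjusted p = 0.971 in single and 0.777 in double mutants).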
